A study of Mus musculus with 53 samples.

Results

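The genes described here are 6 genes of the Wnt pathway, 3 of them direct targets (Axin2, Sp5 and Cdx1) and 3 of them members of the TCF/LEF family of DNA-binding proteins (Lef1, Tcf7 and Tcf7l1). They were chosen by name, with earlier results of these data known, and taken with their gene bodies and 50 kb on each side on mm10, which gave 6 windows of the 21938 windows of protein-coding genes on chromosomes 1 to 19, X and Y. The windows ran from 102807 bp for Sp5 to 262877 bp for Tcf7l1, and every peak of the 35 deposited CUT&RUN peak lists that overlapped one of them was read.

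In Wnt signalling, a secreted ligand holds back the destruction complex that contains AXIN and GSK3, so that beta-catenin accumulates, enters the nucleus and joins a TCF/LEF protein on DNA. GSK3 inhibitors such as CHIR99021 do the same without a ligand, and in mouse embryonic stem cells (ESCs) they sustain self-renewal. TCF7L1 (also called TCF3) is the TCF/LEF protein best known as a repressor in ESCs, while TCF7 and LEF1 are known mainly as activators with beta-catenin.

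CUT&RUN uses an antibody to bring micrococcal nuclease to a protein or histone mark and sequences the DNA it releases. The libraries came from SGGC cells, clones of the E14JU ESC line that carry a SOX2-GFP and a GATA6-mCherry reporter, so every group carried both reporters. Antibodies were against SOX2 (10 libraries), GATA6 (5 libraries) and the histone marks H3K27ac (10 libraries), found at active enhancers and promoters, and H3K4me1 (10 libraries), found at enhancers. 33 libraries could be placed in a group from their labels.

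The 5 populations were ESCs in 2iLIF, ESCs in NACL, naïve extra-embryonic endoderm cells (nEnd), and SOX2+ and double-positive (DP) cells sorted from culture in KOSR medium. 2iLIF contains a MEK inhibitor, CHIR99021 and LIF, and NACL contains Activin A, CHIR99021 and LIF. The study describes NACL as sharing its cytokines with nEnd culture and differing in base medium. That the nEnd medium also contained CHIR99021 is inferred from this, since no source used here lists its components, and no GSK3 inhibitor is named for KOSR. 2iLIF, NACL and nEnd libraries came from clones B9 and B12, with 1 library of each clone per antibody, except that both nEnd H3K4me1 libraries were of clone B9. All KOSR libraries came from clone B12, in experiments named A, A1 and B, so the SOX2+ and DP populations had no library of clone B9. SOX2 had 2 libraries in 2iLIF, 2 in NACL, 3 in SOX2+ and 3 in DP cells, and GATA6 had 3 in DP cells and 2 in nEnd. The histone marks had 2 libraries each in 2iLIF, NACL, SOX2+ and nEnd and 1 each in DP cells (experiment A). A further H3K27ac and a further H3K4me1 library of experiment B carry a title that names DP and a source name that names SOX2+, so they were kept apart. For SOX2 in NACL B12, 1 label reads IgG while the antibody and title entries give SOX2 and NACL, and the GATA6 library of DP A carries the suffix sub02, which no source used here explains.

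Read depth is unknown, and the lists differed in length. They held 1378 to 29623 SOX2 peaks, 1391 to 32510 GATA6 peaks, 13514 to 401853 H3K27ac peaks and 18627 to 130749 H3K4me1 peaks. A peak's max signal is on its own library's scale, so each peak was given its rank by max signal within its library, 1 being the strongest, and a gene's value was the rank of the strongest peak in its window. For comparisons, ranks were held to the length of the shortest list compared, and a window with no peak within it took the next rank. The labelled populations were checked by H3K27ac within the 13514 strongest peaks. All 7 pluripotency markers (Pou5f1, Nanog, Sox2, Esrrb, Klf4, Zfp42 and Tfcp2l1) had such a peak in each 2iLIF, NACL, SOX2+ and DP library, and in nEnd 5 did, Sox2 and Esrrb being without one. All 7 primitive endoderm (PrE) markers (Gata6, Gata4, Sox17, Pdgfra, Dab2, Foxa2 and Col4a1) had one in both nEnd libraries, 5 of 7 in the DP library, without Sox17 and Foxa2, and 1 or 2 of 7 in the 2iLIF, NACL and SOX2+ libraries.

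The SOX2 and GATA6 peaks in the 6 windows merged into 67 regions, 43 with SOX2, 28 with GATA6 and 4 with both. These counts pool all populations. SOX2 was in 2 or more libraries at 26 of the 43, and GATA6 at 13 of the 28. Of the 4, only the Axin2 region at -9.27 kb had both factors in the same population, in DP A. For 7 regions picked by hand, each with its gene's strongest SOX2 or GATA6 peak in several libraries, 200 bases are printed here. They surround the maximum of the region's strongest peak, 5′ to 3′ on the plus strand of GRCm38, read from the RefSeq assembly GRCm38.p6. All lie on chromosomes 2, 3, 6 and 11. Regions shared as widely are left out, such as those with SOX2 in 8 libraries at -7.99 kb from Lef1 and 55.33 kb from Tcf7. Capitals mark every match, on either strand, to 4 short motifs. The TCF/LEF motif searched was CTTTGAT, or with the last base changed CTTTGAA. For the SOX family the letters were CATTGT. For the GATA family they were AGATAA. For OCT factors they were ATGCAAAT. No matches to different motifs overlapped in these 7 windows. Positions are given in kb from the gene's start site along transcription, negative upstream.
Axin2, -9.27 kb from the start site, chr11:108910977-108911176, GATA6 in DP and nEnd: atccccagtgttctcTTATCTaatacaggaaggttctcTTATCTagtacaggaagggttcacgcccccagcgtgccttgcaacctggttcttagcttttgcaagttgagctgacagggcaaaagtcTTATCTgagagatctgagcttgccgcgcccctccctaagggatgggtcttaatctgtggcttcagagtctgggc
Sp5, 10.03 kb downstream of the start site, chr2:70484855-70485054, SOX2 in 2iLIF, NACL and SOX2+: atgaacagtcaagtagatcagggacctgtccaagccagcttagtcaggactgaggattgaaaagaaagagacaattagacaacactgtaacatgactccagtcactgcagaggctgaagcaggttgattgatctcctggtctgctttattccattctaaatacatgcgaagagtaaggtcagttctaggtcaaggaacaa
Lef1, -25.64 kb from the start site, chr3:131084729-131084928, SOX2 in 9 of 10 libraries: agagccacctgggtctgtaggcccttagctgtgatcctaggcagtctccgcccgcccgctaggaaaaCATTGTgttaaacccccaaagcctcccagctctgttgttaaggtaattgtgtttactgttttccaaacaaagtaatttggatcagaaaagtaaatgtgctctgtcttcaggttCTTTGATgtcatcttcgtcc
Tcf7, -3.54 kb from the start site, chr11:52286455-52286654, SOX2 in 8 of 10 libraries: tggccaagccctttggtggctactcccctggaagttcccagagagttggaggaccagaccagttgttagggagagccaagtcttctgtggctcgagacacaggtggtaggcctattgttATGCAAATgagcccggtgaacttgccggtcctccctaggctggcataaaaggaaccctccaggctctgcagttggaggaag
Tcf7, -31.52 kb from the start site, chr11:52314437-52314636, GATA6 in all DP libraries: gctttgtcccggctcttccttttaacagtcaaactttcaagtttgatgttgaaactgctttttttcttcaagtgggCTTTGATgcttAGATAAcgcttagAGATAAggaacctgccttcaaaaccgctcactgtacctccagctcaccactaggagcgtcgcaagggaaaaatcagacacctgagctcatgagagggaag
Tcf7l1, 168.15 kb downstream of the start site, chr6:72621002-72621201, GATA6 in DP and nEnd: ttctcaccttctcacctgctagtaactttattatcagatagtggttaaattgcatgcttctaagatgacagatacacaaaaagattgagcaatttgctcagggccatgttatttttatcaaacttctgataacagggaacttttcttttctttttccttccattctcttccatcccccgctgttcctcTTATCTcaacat
Tcf7l1, intron, 18.9 kb downstream of the start site, chr6:72770257-72770456, SOX2 in 2iLIF, NACL and SOX2+: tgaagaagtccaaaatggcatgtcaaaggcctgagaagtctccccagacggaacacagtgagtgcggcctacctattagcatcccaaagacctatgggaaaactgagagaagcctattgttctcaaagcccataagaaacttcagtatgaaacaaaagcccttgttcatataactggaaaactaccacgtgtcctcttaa

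The Axin2 region held 3 GATA matches, each written TTATCT on the plus strand. In the same 200-base windows, 70.5 to 76.8% of the peaks of the 3 DP GATA6 libraries held at least 1 GATA match, and 6.16, 8.01 and 10.1% held 3 or more (DP A, A1 and B). The Tcf7 region bound by GATA6 held 2 GATA matches, 1 of them starting 1 bp past the peak maximum, and a TCF/LEF match starting at -23 bp from it. A GATA and a TCF/LEF match occurred together in 7.6, 8.92 and 9.13% of the DP GATA6 peaks of A, A1 and B. The Tcf7l1 region bound by GATA6 held 1 GATA match, 89 bp from the maximum.

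Of the regions bound by SOX2, the one upstream of Lef1 held a SOX and a TCF/LEF match and the one upstream of Tcf7 held an OCT match, 20 bp from the maximum. No match to these letters stood in the windows shown for Sp5 and for the Tcf7l1 intron. Over all 43 regions with SOX2, 13 (30.2%) held a SOX match and 9 (20.9%) a TCF/LEF match. Among all peaks of the 10 SOX2 libraries, 29.3 to 42.5% held a SOX match and 10.3 to 18.4% a TCF/LEF match. Over the 28 regions with GATA6, 15 (53.6%) held a GATA match, beside 55.7 to 76.8% of all peaks of the 5 GATA6 libraries. These matches describe the letters in the windows and not binding sites.

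Sp5, a zinc finger transcription factor gene and direct Wnt target, had the strongest SOX2 peak of the 6 genes in both 2iLIF libraries. Its strongest SOX2 peak ranked 99 in 2iLIF B9 and 279 in 2iLIF B12, where 0.711 and 1.81% of all gene windows held a stronger one. In NACL it ranked 1438 in B9 and 5464 in B12. In SOX2+ cells it ranked 11637 (A), 14110 (A1) and 8426 (B), and the 3 DP libraries had no SOX2 peak at Sp5. The order was thus 2iLIF, NACL and SOX2+, with no overlap between the ranks of these populations. The DP lists of 1378 to 5320 peaks are shorter than the ranks seen in SOX2+ cells, so SOX2 at Sp5 at the level of SOX2+ cells would not be detectable in DP cells at this list length.

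Most of these peaks lay at an intergenic region 10.03 kb downstream of the Sp5 start site (chr2:70484647-70485324), 1 of 5 SOX2 regions in the window. It carried SOX2 in every library except those of DP cells. A second region at the start site itself (chr2:70474585-70475141, in the UTR) carried SOX2 at ranks 1530 and 1517 in 2iLIF B9 and B12, 3823 and 5464 in NACL B9 and B12, and 16628 in SOX2+ A1. Regions at -30.99 and -36.95 kb had SOX2 in 4 and 2 libraries, and in no KOSR library. No GATA6 library had a peak in the Sp5 window.

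**Figure D1:**
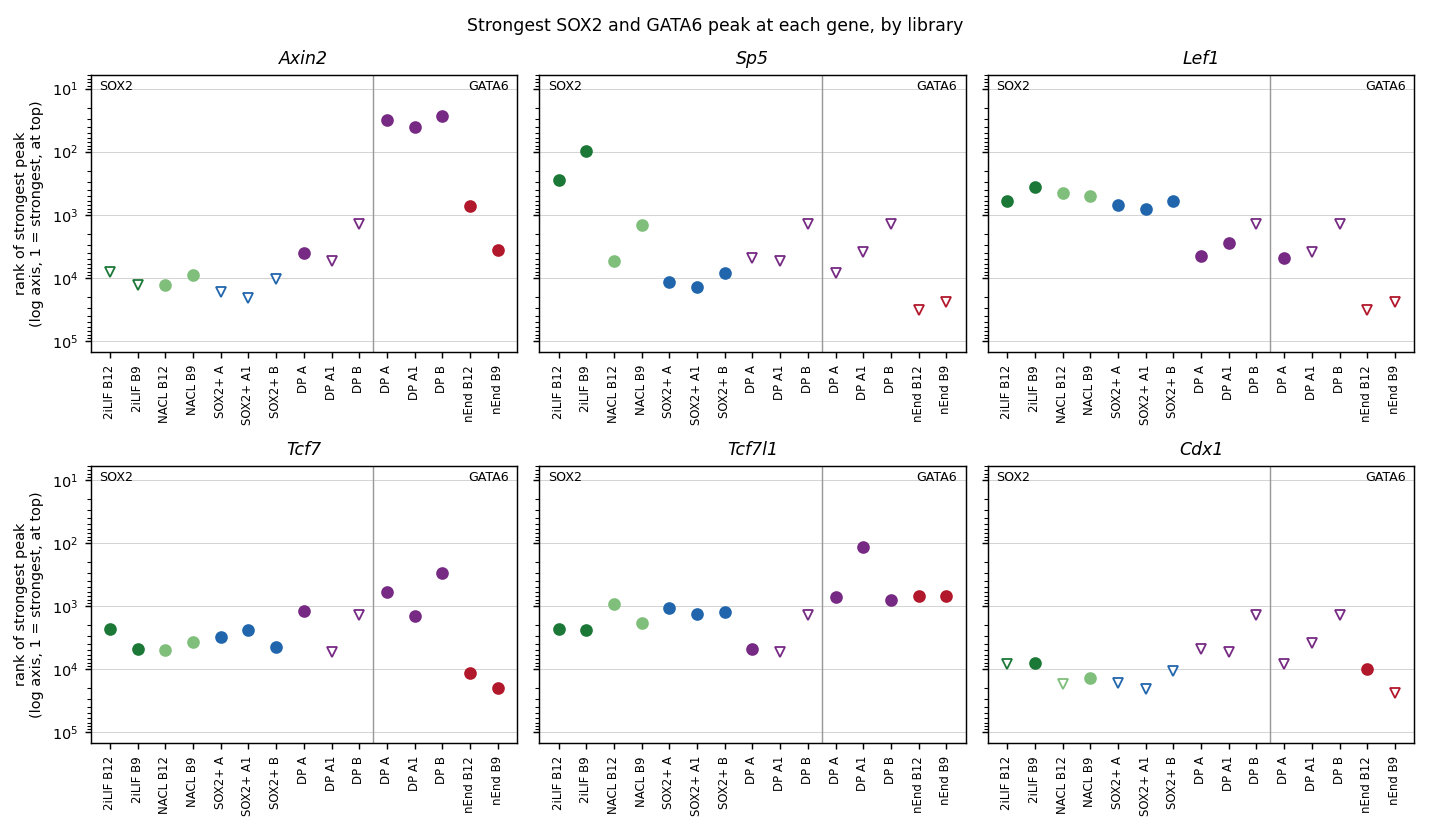
Rank of the strongest SOX2 peak (left of the line, 10 libraries) and GATA6 peak (right of the line, 5 libraries) in each gene's window, on a log axis with the strongest at the top; filled circles are peaks, and open triangles stand at the length of the list for libraries with no peak in the window, and colors mark the populations. GATA6 at Axin2 sits at ranks 27 to 41 in the 3 DP libraries and SOX2 at Sp5 at ranks 99 and 279 in 2iLIF.

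The histone marks at Sp5 followed a like order in the deposited lists. Its strongest H3K27ac peak ranked 1561 and 3543 in 2iLIF B9 and B12, and 21874 and 20764 in NACL B9 and B12. Neither SOX2+ library, the DP library nor either nEnd library had an H3K27ac peak in the window. The SOX2+ lists (13514 and 14722 peaks) are shorter than the NACL ranks and the nEnd lists (21394 and 20072 peaks) about as long, so a level like that of NACL was not detectable in SOX2+ and hardly in nEnd. In 2iLIF, 78.7 to 94.9% of the Sp5 gene body lay under H3K27ac peaks. H3K4me1 was at ranks 2577 and 3467 in 2iLIF, 3641 and 4004 in NACL, 27044 and 29789 in SOX2+ and 48275 in the DP library, and neither nEnd library had an H3K4me1 peak at Sp5.

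Axin2 encodes a scaffold of the destruction complex that limits Wnt signalling and is itself a target of the pathway. It had the strongest GATA6 peak of the 6 genes in the DP cells. That peak ranked 32, 41 and 27 in DP A, A1 and B, and 0.251, 0.324 and 0.196% of all gene windows held a stronger GATA6 peak. In nEnd the strongest GATA6 peak at Axin2 ranked 3579 in B9 and 728 in B12, below all 3 DP libraries.

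In all 5 GATA6 libraries that peak lay at the same intergenic region at -9.27 kb (chr11:108910395-108911260, 866 bp), with no other protein-coding gene in the Axin2 window. SOX2 was found there in DP A at rank 4009 of 4859 and in NACL B9 and B12 at ranks 11189 and 12742, and in no 2iLIF or SOX2+ library. H3K27ac lay over the region in both 2iLIF libraries, both NACL libraries, the DP library and nEnd B12, and in neither SOX2+ library. H3K4me1 lay over it in both 2iLIF, both SOX2+ and both nEnd libraries, in 1 NACL library and in the DP library. In the H3K27ac list of DP A the strongest peak of the Axin2 window was at this place, at -9.82 kb and rank 2660 of 76260, and in nEnd B12 the window's 1 peak was there, at rank 13025.

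The strongest H3K4me1 peak at Axin2 was intergenic in every library. It ranked 3430 and 5972 in 2iLIF B9 and B12, 1298 and 3155 in NACL, 8918 and 24105 in SOX2+ A and B, 2902 in DP A, and 4580 and 6967 in the nEnd libraries. Both SOX2+ libraries had weaker ranks than the other libraries with a group, but the lists differed in length, and as a share of its own list the peak of the second nEnd library (within the top 37.4%) was weaker than those of SOX2+ (15.4 and 30.8%). In DP A the peak was at the GATA6 region, at -9.23 kb.

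Across the Axin2 gene body H3K27ac had another pattern. Peaks covered 50.3 and 54.1% of it in 2iLIF, 54 and 42.6% in NACL (B9 and B12 each), 0.808% in the DP library, and 0% in the SOX2+ and nEnd libraries. The strongest of them ranked 2530 and 19015 in 2iLIF B9 and B12, and 13959 and 11173 in NACL. Only 2 of these 4 ranks lie within the length of the shorter SOX2+ list, 13514 peaks.

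**Figure D2:**
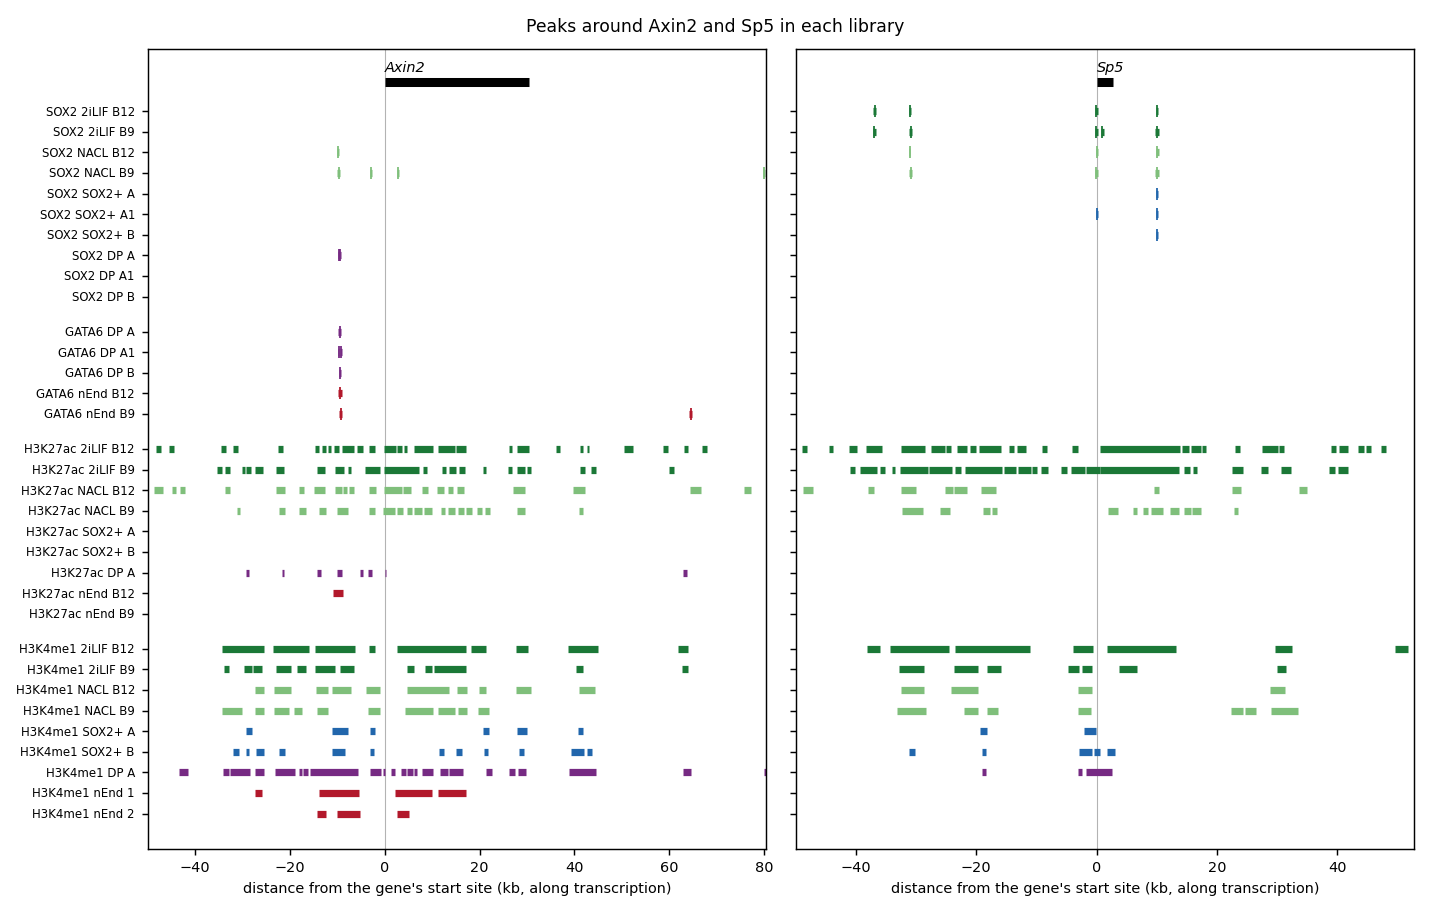
Peaks of each library along the Axin2 and Sp5 windows, in kb from the gene's start site along transcription; each row is a library, each bar a peak drawn to scale (a tick marks the short SOX2 and GATA6 peaks), black bars are the gene bodies, and the 2 libraries without a group are left out. Colors mark the populations. The strongest GATA6 peak of each of the 5 libraries stands at about -9.27 kb from Axin2, and no GATA6 peak lies in the Sp5 window.

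Lef1 had SOX2 peaks within the 798 strongest in all 7 libraries of the pluripotent populations. Its strongest SOX2 peak ranked 359 and 613 in 2iLIF (B9 and B12), 499 and 459 in NACL, and 700, 798 and 614 in SOX2+ (A, A1 and B). In DP cells it ranked 4526 in A and 2748 in A1, and DP B, with the shortest list, had none. All of these peaks lay at 1 intergenic region at -25.64 kb (chr3:131084530-131085175). 9 of 10 SOX2 libraries had a peak there, and none of the GATA6 libraries did.

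A second region at -7.99 kb (chr3:131102223-131102822) carried SOX2 in 8 libraries, at ranks 1128 to 2174 in SOX2+ and 1334 and 1454 in NACL and, with a weaker rank, 3462 and 5119 in 2iLIF. A further region, in an intron at 33.96 kb, had SOX2 in each library but those of DP cells. A region in an intron of Hadh at 160.32 kb had SOX2 in the 3 SOX2+ libraries only (ranks 14566, 10593 and 5987). The 1 GATA6 peak in the window was in an intron of the neighbouring gene Hadh, in DP A at rank 4807.

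H3K27ac lay over the region at -25.64 kb from Lef1 in both 2iLIF, both NACL, both SOX2+ and the DP library, and in neither nEnd library. The strongest H3K27ac peak of the window had its maximum between -25.83 and -25.2 kb in the 4 libraries of 2iLIF and NACL (ranks 8059, 5078, 9638 and 2071) and in both of SOX2+ (2623 and 9993). In DP A and nEnd the strongest one lay in Hadh, at rank 2050 in DP A and 14186 and 8381 in nEnd. No H3K27ac peak overlapped the Lef1 gene body in the SOX2+, DP or nEnd libraries. The gene-body peaks of 2iLIF and NACL ranked 40987 or lower in their lists, beyond the ends of the SOX2+ and nEnd lists, so peaks of that rank were not detectable there.

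H3K4me1 at Lef1 was strongest in different places in different populations. In NACL it was in a Lef1 intron, at ranks 531 (B9) and 2676 (B12), and in SOX2+ it was near the upstream SOX2 region, at ranks 7064 (A) and 5570 (B). In 2iLIF (1846 and 2183), DP A (4767) and nEnd (9627 and 7736) it was in an intron of Hadh. No nEnd library had H3K4me1 over the upstream SOX2 region, where both 2iLIF, both NACL, both SOX2+ and the DP library did.

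Tcf7 (which encodes TCF1) had SOX2 peaks of middle rank in all 7 pluripotent libraries. The strongest ranked 4820 and 2315 in 2iLIF B9 and B12, 3720 and 5012 in NACL B9 and B12, and 3051, 2354 and 4374 in SOX2+ A, A1 and B. In DP cells it ranked 1208 in A, while A1 and B had none. The region at -3.54 kb (chr11:52286438-52286686) carried all of these but 1, the strongest in 2iLIF B12 being at -17.81 kb. GATA6 was elsewhere, at -31.52 kb (chr11:52314375-52314707), at ranks 598, 1447 and 302 in DP A, A1 and B, and at rank 11307 in nEnd B12. In nEnd B9 the 1 GATA6 peak of the Tcf7 window was at 58.81 kb, at rank 19560. No SOX2 library had a peak in that region.

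The strongest H3K27ac peak at Tcf7 lay in a Tcf7 intron in both SOX2+ libraries (ranks 1281 and 5604) and in nEnd B9 (rank 3081). In 2iLIF, NACL and the DP library it lay at or beyond Skp1a, the next gene, at ranks 2482 and 3232 in 2iLIF, 2203 and 3476 in NACL and 6109 in DP A. In nEnd B12 it was intergenic at 58.67 kb, at rank 845. The intergenic region at 55.33 kb, past Skp1a (chr11:52227476-52228141), carried SOX2 in 8 libraries, including DP A at rank 2620, and GATA6 in nEnd B12 at rank 31977. H3K4me1 at Tcf7 ranked 6429 and 11465 in 2iLIF, 6857 and 1448 in NACL, 8039 and 8239 in SOX2+, 4330 in DP A and 579 and 5584 in nEnd, the nEnd peaks being in an intron of Skp1a.

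Tcf7l1 had the most regions of the 6 genes, 33 of the 67, and the longest window, 262877 bp. Of its 18 regions with SOX2, 10 were found in 2 or more SOX2 libraries. Of its 17 with GATA6, 10 were found in 2 or more GATA6 libraries. SOX2 was strongest in an intron 18.9 kb from the start site (chr6:72770070-72770707) in 6 of the 7 pluripotent libraries, and in NACL B9 in another intronic region at 111.43 kb. Its ranks were 2396 and 2303 in 2iLIF B9 and B12, 1860 and 922 in NACL B9 and B12, and 1088, 1322 and 1236 in SOX2+ A, A1 and B. DP A had 1 SOX2 peak, at rank 4750 of 4859 and 166.1 kb from the start site, and DP A1 and B had none.

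GATA6 was strongest at Tcf7l1 in all 5 libraries at 1 intergenic region 168.15 kb from the start site, just past the 3′ end of the gene and near Tgoln1 (chr6:72620847-72621486). It ranked 722, 114 and 796 in DP A, A1 and B, and 686 and 693 in nEnd B9 and B12, so the populations overlapped. In nEnd further GATA6 peaks lay mostly in the introns, with 13 and 14 peaks in the window in nEnd B9 and B12 against 1, 2 and 1 in DP A, A1 and B. The nEnd lists hold 24223 and 32510 peaks and the DP lists 1391 to 8316, which moves with this number. An intronic region at 48.81 kb had GATA6 in DP A1 (rank 3816) and both nEnd libraries (5178 and 8422). It had SOX2 in 4 libraries, none of them of DP cells. It is 1 of the 2 regions at Tcf7l1 with both factors, neither of which had both in the same population.

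The histone marks at Tcf7l1 were broad. H3K4me1 in nEnd ranked 36 and 50 and was strongest 21.9 and 21.75 kb into the gene. In the DP library it ranked 22 of 130749 peaks. Both 2iLIF libraries (87 and 685), both NACL libraries (589 and 409) and both SOX2+ libraries (261 and 486) followed, all within the 685 strongest peaks. H3K27ac ranked 65 and 1493 in nEnd B9 and B12, against 1858 and 4105 in 2iLIF, 3438 and 1654 in NACL, 1781 and 4398 in SOX2+ and 937 in the DP library. In nEnd the strongest H3K27ac peak was in an intron 94.59 and 94.56 kb from the start site in B9 and B12. Tcf7l1 was also the 1 member with an H3K27ac peak within 1 kb of its start site in both nEnd and both SOX2+ libraries.

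**Figure D3:**
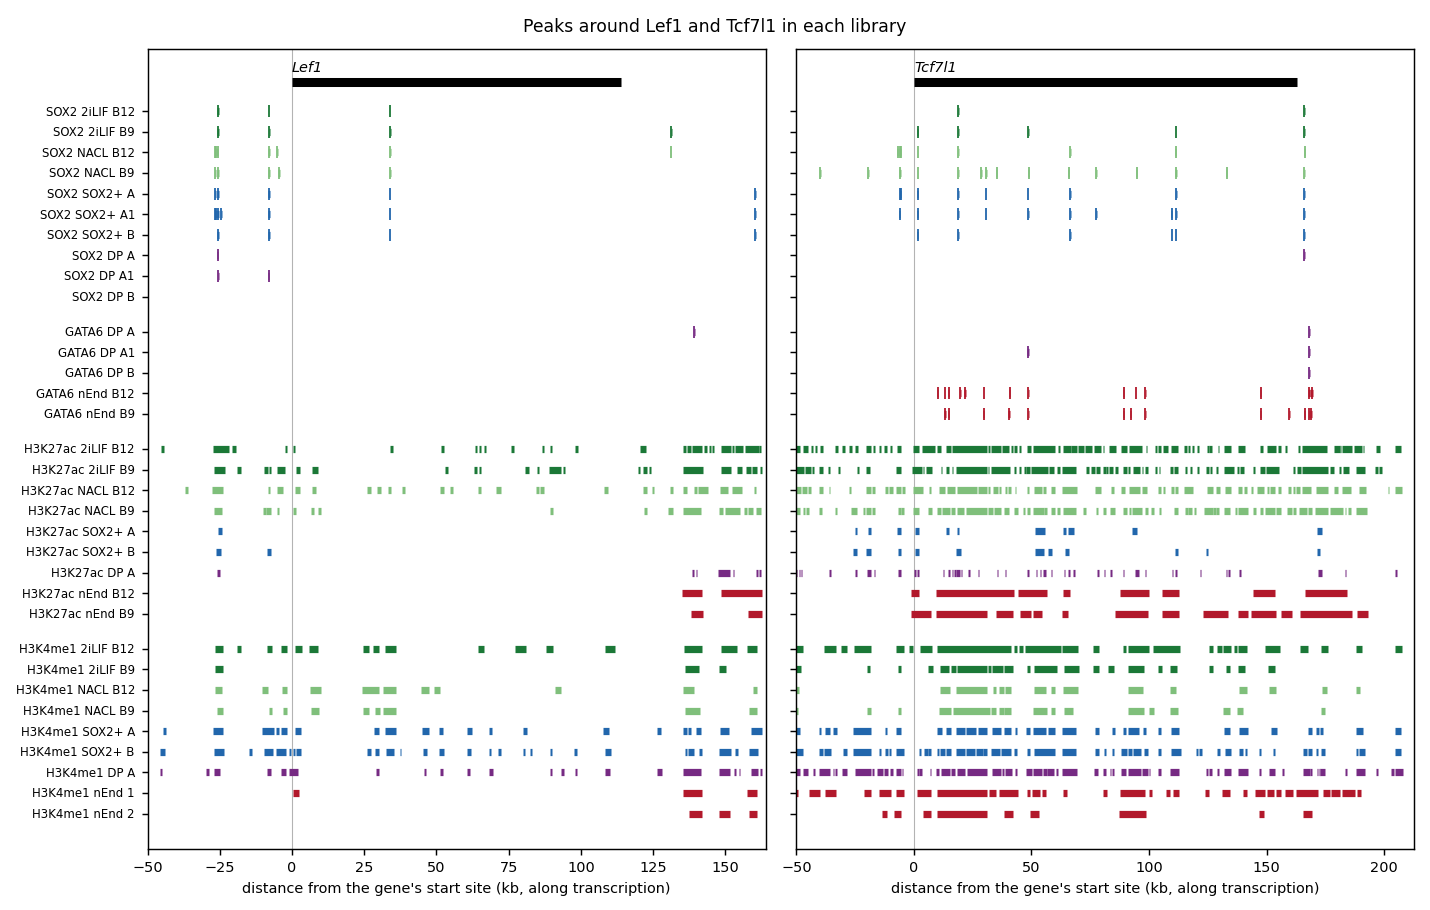
Peaks of each library along the Lef1 and Tcf7l1 windows, in kb from the gene's start site along transcription, drawn as in the map of Axin2 and Sp5 (colors are populations, rows are libraries, bars peaks, ticks mark SOX2 and GATA6 peaks, black bars gene bodies). SOX2 at -25.64 kb from Lef1 appears in 9 of 10 libraries, and GATA6 peaks within Tcf7l1 appear mainly in the nEnd rows.

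Cdx1, a caudal homeobox gene and Wnt target of the posterior embryo, had few peaks of either factor. SOX2 was found in 2iLIF B9 at rank 7974 and in NACL B9 at rank 13780, and in no other library, so clone B9 had it in both media and clone B12 in neither. The B9 lists were the longer ones, with 13177 against 8203 peaks in 2iLIF and 29623 against 17111 in NACL. Rank 7974 is close to the end of the 2iLIF B12 list, so a difference between the clones cannot be told apart from list length. In 2iLIF B9 the peak was in a Cdx1 intron at 1.31 kb, a region that ranked 15752 in NACL B9, where the strongest peak was in an intron of Slc6a7. GATA6 was found in nEnd B12 alone, its strongest peak at rank 10045 lying in the UTR of Camk2a.

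The Cdx1 gene body carried H3K27ac in the 4 libraries of 2iLIF and NACL, over 61.6 and 69.5% of its length in 2iLIF and 49.8 and 31.1% in NACL. Their ranks were 5593 and 15379 in 2iLIF and 18247 and 30225 in NACL. The DP library had 1 peak at rank 47970, and the SOX2+ and nEnd libraries had none in the whole window. Of the 4 ranks in 2iLIF and NACL, 5593 alone lay within the shorter SOX2+ list of 13514 peaks and 30225 lay beyond both nEnd lists, so peaks of such ranks were not detectable in those libraries. H3K4me1 lay over 45.7 and 97.6% of the gene body in 2iLIF, 44 and 40% in NACL, 18 and 20.3% in SOX2+ and 27.6% in the DP library, and over 0% in both nEnd libraries. The H3K4me1 peaks of the nEnd libraries in this window, at ranks 936 and 597, lay at the neighbouring genes Camk2a and Pdgfrb.

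**Figure D4:**
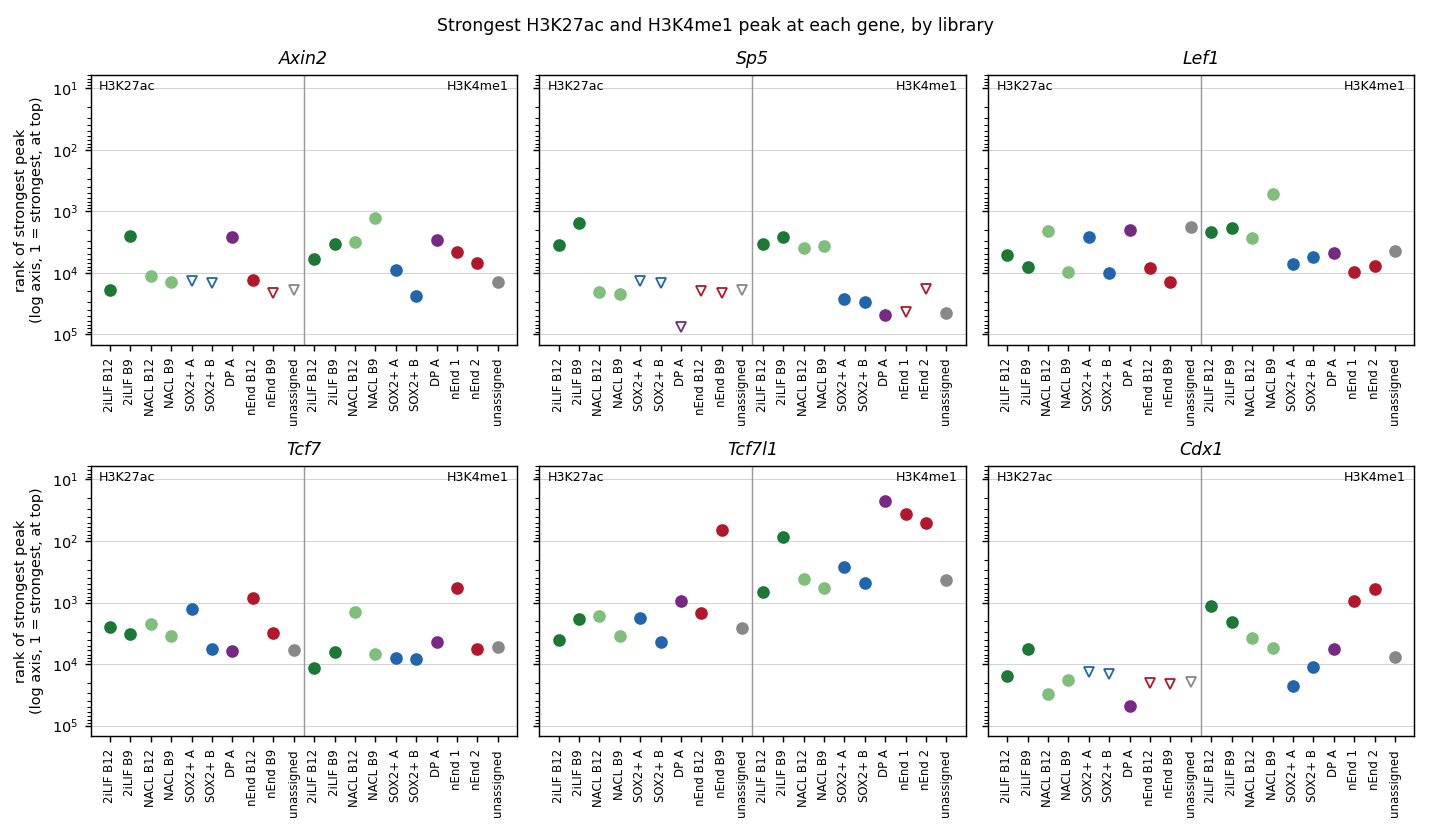
Rank of the strongest H3K27ac peak (left of the line) and H3K4me1 peak (right of the line) in each gene's window in 10 libraries of each mark, on a log axis with the strongest at the top; open triangles stand at the length of the list for libraries with no peak, and gray points are the 2 libraries without a group. Sp5 and Cdx1 have no H3K27ac peak in SOX2+ or nEnd, while H3K4me1 at Tcf7l1 reaches ranks 36 and 50 in nEnd.

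The populations were compared with exact permutation tests over libraries, 2-sided, for every gene window with a peak within the shared list length in at least 1 library, and the p-values were adjusted by Benjamini-Hochberg over all of those genes. A gene was counted as separate when every library of one group lay on one side of every library of the other. In these 8 comparisons no gene window had an adjusted p under 0.05 (smallest 0.146), and in 7 of them no unadjusted p could be under 0.05, the smallest possible being 0.0571 to 0.2. The libraries of a population are separate samples of 1 or 2 clones, so the tests measure the spread between these libraries.

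The first question was whether SOX2 at these genes differed between DP cells and the pluripotent populations. Against the 7 libraries of 2iLIF, NACL and SOX2+, with ranks held to the 1378 strongest peaks, 4 of the 6 members could be tested and 1 (Lef1) was separate, with weaker SOX2 in DP. The background was 4.12% of 4349 genes in that direction. All 7 pluripotent libraries had Lef1 within the limit and no DP library did, a difference of at least 0.39 in mean log10 rank (at least 2.46-fold), which gave p = 0.0167 in the exact permutation test, the smallest possible, and an adjusted p of 0.146. With 20 kb on each side, or held to 50% of these peaks, Lef1 overlapped. At p under 0.05 there were 617 genes, 14.2% of those tested. Without DP B, the shortest list, ranks could be held to 4859 peaks and Tcf7l1 was separate as well, which made 2 members (0.80 for Lef1), beside 22.1% of all genes in both directions together (11.5% with DP B). Against SOX2+ cells alone (3 against 3 libraries, not paired), Lef1 and Tcf7l1 were separate, both weaker in DP, beside 15.2% of 3561 genes. Their differences were at least 0.29 and 0.06, with p = 0.1 for both in the exact permutation test, the smallest possible. These values depended on the libraries. Without DP B, where 42.5% of all genes were separate, the difference was 0.70 for Lef1, which both remaining DP libraries had within the limit. It was at least 0.60 for Tcf7l1, where DP A1 had no peak. Without SOX2+ A the limit for Tcf7l1 was 0.03. Sp5, Axin2 and Cdx1 had no SOX2 peak within 1378 in either population.

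The next question was whether SOX2 differed between ESCs in 2iLIF and NACL and SOX2+ cells of KOSR culture. Besides the GSK3 inhibitor, these groups differ in other medium components, in sorting for SOX2 and in clones, which cannot be told apart here. The group of 2iLIF and NACL was itself not uniform at Sp5, with ranks 99 and 279 in 2iLIF and 1438 and 5464 in NACL. Sp5 and Lef1 were separate, both with stronger SOX2 in 2iLIF and NACL, beside 8.33% of 12116 genes in that direction. With ranks held to 8203 peaks the difference for Sp5 was -1.08 in mean log10 rank, at least 12-fold in rank, not in signal, since all 3 SOX2+ libraries were at the limit, while the middle 90% of genes lay between -0.41 and 0.45. The difference for Sp5 was -0.80 without 2iLIF B9 and -1.38 without NACL B12, and at 50% of the peaks it was -0.81 and the groups overlapped. For Lef1 it was -0.17 (1.48-fold), with mean log10 ranks of 2.68 ± 0.10 (SD, n = 4) and 2.85 ± 0.06 (SD, n = 3) and p = 0.0571 in the exact permutation test, the smallest possible, with an adjusted p of 0.258. Tcf7 and Tcf7l1 had differences of 0.08 and 0.16 and overlapped. Lef1 changed direction to 0.19 with 20 kb on each side, a window that leaves out the region at -25.64 kb, and both genes overlapped when peaks were ranked by total signal.

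For GATA6, nEnd was compared with DP. Axin2 was separate, with stronger GATA6 in DP, beside 19.1% of 4517 genes in that direction. The mean log10 rank was 1.52 ± 0.09 (SD, n = 3) in DP, and nEnd B9 was held at the limit of 1391 peaks while nEnd B12 had rank 728. The difference was at least 1.49 (at least 30.7-fold in rank), outside the middle 90% of all genes tested (-0.73 to 0.72). The p was 0.2 in the exact permutation test, the smallest possible with 2 against 3 libraries, and the adjusted p 0.498. As a share of each library's own list the peak lay in the top 0.385, 1.07 and 1.94% in DP A, A1 and B and in the top 14.8 and 2.24% in nEnd B9 and B12, so on that scale DP B and nEnd B12 were close. Tcf7 and Tcf7l1 differed by 0.34 and 0.23 in the same direction and overlapped. Leaving out DP A1 gave 3 separate members (both of them added) beside 46.5% of all genes in both directions together. Tcf7 was then stronger in DP, but Tcf7l1 in nEnd, with ranks 686 and 693 against 722 and 796 in DP A and B. Leaving out DP B gave 2 separate members (Tcf7 added) beside 53.8%, against 40.1% with all libraries.

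For H3K27ac in nEnd against 2iLIF and NACL, Tcf7l1 was separate, with a stronger peak in nEnd, beside 25.1% of 18077 genes. Its mean log10 rank was 2.49 ± 0.96 (SD, n = 2) in nEnd and 3.41 ± 0.19 (SD, n = 4) in the others, a difference of -0.92 with p = 0.133 in the exact permutation test, the smallest possible. The SD of the 2 nEnd libraries was larger than this difference, and in 2iLIF B9, NACL B9 and NACL B12 the strongest peak lay outside the gene, toward Tgoln1 or Kcmf1. Taken in pairs of the same clone, with clone as a block, 5 members (Sp5, Lef1, Tcf7, Tcf7l1 and Cdx1) had the same direction in B9 and B12, a weaker criterion that 74.8% of all genes met, so the count was near its background. The differences are given here for B12 first and B9 second. Those for Sp5, Lef1 and Cdx1 were positive, toward weaker marks in nEnd (0.38 and 0.55 for Sp5, 0.41 and 0.21 for Lef1, 0.06 and 0.30 for Cdx1). For Sp5 and Cdx1 nEnd was set to the list length, since it had no peak there. The differences for Tcf7 (-0.44 and -0.04) and Tcf7l1 (-0.24 and -1.59), in the same order of clones, were negative, toward stronger marks in nEnd. Without nEnd B12 there were 3 separate members (Axin2, Lef1 and Tcf7l1) beside 64.8% of all genes in both directions together, and without nEnd B9, NACL B9 or NACL B12 there were 2, beside 60.6, 50.9 and 54.2%, so none of these counts exceeds its background. With 100 kb on each side Tcf7l1 overlapped.

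For H3K4me1 in nEnd against 2iLIF and NACL, 4 of 6 members were separate. Tcf7l1 (difference -0.91) and Cdx1 (-0.55) had the stronger peak in nEnd, beside 22.5% of 17494 genes, and Sp5 (at least 0.74, no nEnd library having a peak there) and Lef1 (0.75) in 2iLIF and NACL, beside 16.5%. The p for each was 0.133 in the exact permutation test, the smallest possible, with adjusted p of 0.342. Ranked by total signal only Sp5 and Lef1 were separate, with 20 kb on each side only Tcf7l1, and with 100 kb Cdx1 overlapped (-0.18). The peak that placed Cdx1 higher in nEnd lay at neighbouring genes, the Cdx1 gene body having no nEnd peak of the mark.

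Between 2iLIF and NACL on one side and SOX2+ cells on the other, H3K27ac separated none of the 6 members at 13514 peaks, beside 23.3% of 15898 genes with a stronger peak in 2iLIF and NACL and 8.69% with a stronger peak in SOX2+, and 0 genes had an unadjusted p under 0.05, which 4 against 2 libraries cannot give in an exact permutation test. Without SOX2+ A 3 members were separate (Lef1, Tcf7 and Tcf7l1) beside 50.4% of all genes, and without SOX2+ B 1 was (Tcf7) beside 48.5%, neither above its background. H3K4me1 separated 4 of 6, Axin2 (-0.69), Sp5 (-0.86), Lef1 (-0.61) and Cdx1 (-0.78), each stronger in 2iLIF and NACL, beside 12.2% of 17743 genes in that direction. The middle 90% of genes ran from -0.64 to 0.64. The p was 0.133 for each in the exact permutation test, the smallest possible, with an adjusted p of 0.504. The value for Sp5 is the least its size can be, since neither SOX2+ library had a peak at Sp5 within the compared list length. Axin2 and Sp5 stayed separate under every alternative run, whereas Lef1 overlapped with 20 kb (-0.29) and 100 kb (-0.05) on each side, and Cdx1 by total signal (-0.55) and with 100 kb (-0.09). Tcf7 and Tcf7l1 differed by -0.19 and -0.01 and overlapped. For Lef1 the peaks compared lay at different places, some of them in Hadh. The comparisons of nEnd and of SOX2+ share the 2iLIF and NACL libraries.

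**Figure D5:**
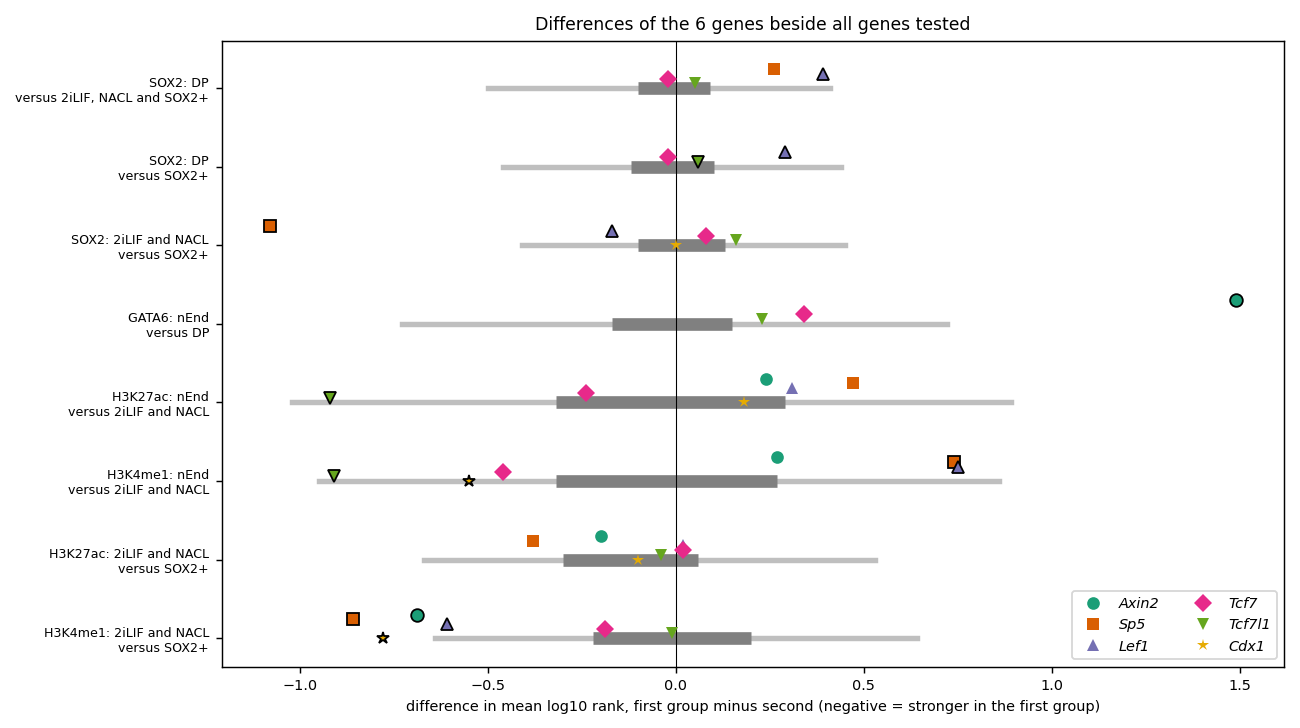
Difference in mean log10 rank between the first and the second group of each comparison, negative meaning a stronger peak in the first group; symbols are the 6 genes (black edge where no library of one group overlaps the other), and gray bars span the 5th to 95th (thin) and 25th to 75th (thick) percentiles of all genes tested. Axin2 for GATA6 (1.49) and Sp5 for SOX2 in 2iLIF and NACL versus SOX2+ (-1.08) lie outside the thin bars, as do Axin2 (-0.69), Sp5 (-0.86) and Cdx1 (-0.78) for H3K4me1 in the bottom comparison.

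Other genes of the pathway were read from a list of 82 (ligands and their release, receptors, destruction complex and partners, inhibitors and other targets). For SOX2 in 2iLIF and NACL against SOX2+, 55 could be tested, and 4 were separate with stronger SOX2 in 2iLIF and NACL and 9 with stronger SOX2 in SOX2+, beside 8.33 and 13.9% of all genes. Stronger in 2iLIF and NACL were Myc, a growth-promoting target (ranks 170 to 752 against 2920 to 3759), Notum, an enzyme that inactivates Wnt ligands (difference -0.83), and the inhibitors Apcdd1 and Wif1. Stronger in SOX2+ were Rspo2, a ligand that raises Wnt receptor levels (870 to 1357 against 2490 or weaker), and Ctbp2, a corepressor (492 to 685 against 1572 to 3294). For SOX2 in DP against the 7 pluripotent libraries, Porcn, the enzyme that acylates Wnt ligands, was the 1 gene of 21 tested that was separate, ranking 953, 957 and 566 in DP and beyond 1378 in the 7, while 7.34% of all genes were separate in that direction. Against SOX2+ cells alone, 15 could be tested, and 1 was separate in each direction (Porcn stronger in DP and Rspo2 in SOX2+), beside 11.9 and 15.2% of all genes.

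For GATA6, 17 of the 82 could be tested, 5 being separate in each direction, beside 21 and 19.1% of all genes. Stronger in nEnd were the receptor gene Fzd4 (ranks 119 and 323, against none within 1391 in DP), Axin1, the paralog of Axin2 (166 and 227 against 399 to 874), Wnt6, and Wnt1 and Wnt10b, which are neighbours and share a peak. Stronger in DP were Btrc, the ubiquitin ligase subunit that recognises beta-catenin (149 to 221, against none within 1391 in nEnd), Ctbp2 (111 to 322 against 1305 or weaker), Cdx4, Porcn and Dvl3.

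For H3K27ac in nEnd against 2iLIF and NACL, 76 could be tested and 24 were separate with a stronger peak in nEnd and 16 with a stronger peak in 2iLIF and NACL, beside 25.1 and 22% of all genes. Tcf7l2, the TCF/LEF gene outside the 6 members, ranked 72 and 92 in nEnd and 6939 to 15174 in 2iLIF and NACL. Wls, which carries Wnt ligands to the cell surface, ranked 4 to 339 in 2iLIF and NACL and 17594 or weaker in nEnd, and Myc 2087 to 4067 against 15873 or weaker. For H3K4me1 in the same comparison 79 could be tested and 14 were separate in each direction, beside 22.5 and 16.5% of all genes. Rnf43, a ligase that removes Wnt receptors, ranked 276 and 281 in nEnd and 1393 to 10123 in 2iLIF and NACL, and the receptor gene Fzd10 ranked 43 to 1141 in 2iLIF and NACL with no peak within 18627 in nEnd. For 2iLIF and NACL against SOX2+, 11 of 65 tested were separate with stronger H3K27ac in 2iLIF and NACL and 7 with stronger H3K27ac in SOX2+ (23.3 and 8.69% of all genes), and for H3K4me1 17 and 7 of 80 (12.2 and 14.3%).

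The genes on other chromosomes whose ranks were most like those of a member over the 33 libraries were found by Spearman correlation after centring on each antibody. For Axin2 the nearest was Mgat5 (rho 0.72), for Sp5 Tff3 (0.89), with its neighbours Tff2 and Tff1 next, for Lef1 Myo1e (0.76), for Tcf7 Ptpre (0.71), for Tcf7l1 Efr3b (0.84) and for Cdx1 Sema5a (0.99). The libraries behind each point share list length and population. Most of the values of Sp5 and Cdx1, and a small majority of those of Axin2, are at the limit, so these correlations rest largely on ties.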

How the data were processed

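CUT&RUN peak lists of 35 of the 53 samples were used, the other 18 being IgG controls with no list analysed here. Per the submitters' processing notes the authors used cutadapt 1.18, Bowtie2 2.3.4.1, SAMtools 1.9, Picard 2.9.1, bedtools 2.27.1, deepTools 3.2.0 and SEACR on GRCm38/mm10, and per the methods peaks were called in each library against IgG. The methods give SEACR's relaxed setting for factors and stringent for histones, while the lists are named the other way round. The deposited lists give each peak's total and max signal, coverage on the library's own scale, and the position of the maximum. Max signal took 26 to 249 distinct values per library, so ties in rank were broken by total signal and then position. Read depth is unknown, and the length of a list limits which genes can show a peak.

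Genes came from GENCODE M21. Overlap meant at least 1 bp. Groups came from the labels, and the 2 libraries with contradictory labels entered no comparison. The 6 genes, the 82 pathway genes and the markers were chosen with earlier results of these data known. Named besides the 6 were pathway genes from among the 5 with the greatest difference per direction that did not overlap, and the genes most alike by correlation. The test was checked on simulated data. Same-numbered SOX2 libraries of DP and SOX2+ cells (A, A1, B) deviated together (correlations 0.12, 0.23 and 0.23 over 3561 genes). In H3K27ac the clones B9 and B12 pair samples by origin (0.09 and 0.02 over 18077 genes). The main tests left these libraries unpaired, and the pairs were used only in the alternative with a replicate block. Python 3.11.15, numpy 2.4.6, pandas 2.3.3, scipy 1.17.1 and matplotlib 3.10.9 were used. Alternatives were ranking by total signal, 20 or 100 kb on each side, 50% of the shared list length, whole lists, peak midpoints, each library left out, and the replicate block.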

Additional observations from a re-analysis of the deposited data

Results flagged for a closer look

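In 3 of 32 groups of 4 or 7 libraries the gap between 1 library and its nearest neighbour, divided by the whole range, was past the critical value, which chance alone gives in about 1 in 20. In each it was 2iLIF B9 among the libraries of 2iLIF and NACL. In 2 of the 3 the ratio was 1 because the other 3 libraries were tied at the limit, so it says nothing about distance. These were SOX2 at Cdx1, where rank 7974 lay next to the limit of 8203, and H3K27ac at Cdx1, where rank 5593 stood against a limit of 13514. H3K27ac at Axin2, at rank 2530, gave 0.886 with ranks held to 13514 peaks. With ranks held to 20072 peaks the same libraries gave 0.736 for Axin2 and 0.792 for Cdx1, neither past the critical value.

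Libraries outside the comparisons also held peaks at these genes. In the DP library, 4 of the 6 genes had more than 3 H3K27ac peaks and 5 had more than 3 H3K4me1 peaks. In the 2 libraries with contradictory labels the numbers were 1 for H3K27ac (Tcf7l1) and 5 for H3K4me1. There Axin2, Sp5 and Cdx1 had no H3K27ac peak, and Lef1, Tcf7 and Tcf7l1 ranked 1789, 5863 and 2552. In the H3K27ac library among them, 7 of 7 pluripotency markers and 2 of 7 PrE markers had a peak within the 13514 strongest, as in both SOX2+ libraries.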

How the results depend on the processing

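Under the alternatives, 76 counts of separate members stayed within 1.5 times the count reported and 26 did not. Of the differences of single members 185 kept their direction, 2 came to 0.00 and 1 reversed. Their size was not judged, and some of the 185 became far smaller, such as H3K4me1 at Lef1 and Cdx1 with 100 kb. SOX2 in DP against the 7 pluripotent libraries (1 member) gave 0 with 20 kb (11.4% of all genes separate) or with 50% of the list length (11%) and 3 with whole lists, where windows without a peak take the length of their own list and 52.5% of all genes were separate. Against SOX2+ alone (2 members) it gave 1 by total signal (28.4%), 1 with 20 kb (26.8%), 0 at 50% of the length (24.9%) and 4 with whole lists (62.6% of all genes), and the difference of Tcf7l1 was 0.00 by total signal and at 50%. SOX2 in 2iLIF and NACL against SOX2+ (2 members) gave 1 by total signal (Tcf7l1, beside 23.9%), 1 with 20 kb (Sp5, 20.9%) and 1 at 50% (Lef1, 21.4%), and Lef1 reversed to 0.19 with 20 kb. GATA6 in nEnd against DP gave 4 with whole lists, where 61.6% of all genes were separate, and Axin2 was separate under all 11 alternatives. H3K27ac in nEnd against 2iLIF and NACL gave 2 with 100 kb (48.3% of all genes), and H3K4me1 gave 2 by total signal (42.4%) and 1 with 20 kb (37.9%). In 2iLIF and NACL against SOX2+, H3K27ac gave 1 with 100 kb (33.2%) and H3K4me1 gave 2 with 100 kb (26.9%). The cause was not tested except as stated.

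With 1 library left out, the counts ran from 1 to 2 for SOX2 in DP against the 7 libraries (2 without DP B), 1 to 3 for GATA6 (3 without DP A1, 2 without DP B), 1 to 3 for H3K27ac in nEnd (3 without nEnd B12, 2 without nEnd B9, NACL B9 or NACL B12) and 0 to 3 for H3K27ac against SOX2+ (3 without SOX2+ A, 1 without SOX2+ B). With clone as the replicate block, H3K27ac in nEnd gave 5 members of the same direction in both clones, as did 74.8% of all genes. With experiment as the block, SOX2 in DP against SOX2+ kept 2 members, Lef1 and Tcf7l1, beside 35.6% of all genes (27% without the block), each with p = 0.25 by exact sign flips, the smallest possible, the same 2 as without the block. No further paired fit was made, since the other groups compared shared fewer than 2 replicate labels, apart from DP and SOX2+ within the comparison with all 7 libraries.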

Other observations

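H3K27ac within 1 kb of the start site was found in every 2iLIF library at 5 of the 6 genes and in every NACL library at 4, against 1 (Tcf7l1) in SOX2+ and 1 (Tcf7l1) in nEnd and 2 in the DP library (Axin2 and Tcf7l1). Over all protein-coding genes, 55.5 to 61.5% of start sites had such a peak in the 2iLIF and NACL libraries, 17.1 and 18.8% in SOX2+, 37.1% in DP A and 38.9 and 39.5% in nEnd. SOX2 lay at the start site of Sp5 in both 2iLIF libraries, both NACL libraries and SOX2+ A1, beside 1.51 to 9.17% of all start sites in those libraries, and at that of Cdx1 in 1 of 2 NACL libraries. No GATA6 library had a peak at a start site of the 6 genes, beside 0.269 to 13.5% of all start sites.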
